A study of Homo sapiens with 12 samples.

Results

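Potassium channel genes were described in KELLY cells, an established human neuroblastoma line with many copies of MYCN, after delivery of antisense oligonucleotides. Members were the rows of the deposited gene table whose symbol starts with KCN, continues with letters and ends with or without digits, and 96 of the 55771 rows met that rule. They comprised 69 pore-forming subunits, 10 modifier subunits that open no channel alone, 16 auxiliary subunits and KCNRG, a cytoplasmic regulator of channel assembly. Another 21 rows whose symbol starts with KCN, such as antisense RNAs and pseudogenes, did not meet it. The libraries fell into 3 groups of 4: cells given the BPS1 oligonucleotide, cells given the BPS2 oligonucleotide and cells given a control oligonucleotide. All 12 were total RNA from the same line, plated for 24 h in 10% serum, shifted to 4% serum, and transfected at 50 nM with a morpholino held on a DNA leash in a lipid carrier for 48 h. No untransfected or carrier-only group was analysed, and nothing in the labels says that replicates were grown separately, so each p-value reflects how these libraries scatter, possibly for technical reasons alone. The BPS2 libraries carry another name, KPAS, in the description field of their labels, which do not say whether both names stand for 1 oligonucleotide, and all values of BPS2 depend on the match by title. The series text names a rise in the long NEAT1 transcript and in paraspeckles as the change under study.

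Potassium channels let potassium flow out of the cell along its gradient. They set the resting potential, end action potentials and space them. Voltage-gated families open on depolarisation, inward rectifiers and tandem-pore channels carry current near rest, and other channels open on intracellular calcium or sodium. KCNT1 encodes Slack, a sodium-activated channel of neurons, and gain-of-function variants of it are known in severe early epilepsies. Channels of the ether-à-go-go-related (ERG) type are made by KCNH2, KCNH6 and KCNH7, and ERG currents are known in neuroblastoma cells.

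The deposited values are normalized counts, which add up to 29.6 to 33.3 M per library, and the estimated depth was 29.1 to 31.8 M reads. NEAT1, whose row does not separate its transcripts, had 2380, 2150, 2150 and 1414 in BPS1, 4853, 4198, 3912 and 4083 in BPS2, and 6926, 7021, 7074 and 6494 in control. BPS1 replicate 4 and control replicate 1 stood apart: the SD of their deviation from each gene's median was 0.594 and 0.471 log2 units, against 0.377 to 0.425 in the other 10. Their deviation also rose most with transcript GC content (Spearman's rho across genes, which are not independent, 0.348 and 0.227). BPS2 replicates 2, 3 and 4 followed at 0.171, 0.210 and 0.122, and every other library was negative. Leaving out BPS1 replicate 4 and control replicate 1 therefore does not remove that trend. Its part in the BPS2 comparisons made without them was not tested. Markers of the line were present. The 8 neuroblastoma identity genes, of which MYCN held most with a mean of 82675 over all libraries, were summed. Their sums were 122995 to 150689 in BPS1, 142389 to 151433 in BPS2 and 148387 to 167992 in control. Among them HAND2, ISL1 and DBH fell in BPS1 by 0.56, 0.30 and 0.36 on the log2 scale (limma adjusted p = 2.08e-04, 0.0111 and 0.00793), while PHOX2A, GATA3, TH and MYCN did not pass. In BPS2, ISL1 fell by 0.33 (adjusted p = 0.0228). That BPS2 call was lost in 6 of 12 fits without 1 library (limma adjusted p up to 0.0913, without BPS2 replicate 3). The BPS1 calls of HAND2, ISL1 and DBH were kept in all 12. Of the 5 Schwann or glial markers, 3 passed the filter on low values, SOX10 was at 0 in 10 of the 12 libraries and S100B stayed at or below 5.86. The 5 glial markers summed to 152 to 207 in BPS1, 145 to 186 in BPS2 and 138 to 183 in control. The 5 mesenchymal markers summed to 2962 to 3789 in BPS1, 2814 to 3517 in BPS2 and 2258 to 2742 in control. Most of that sum was FN1 and COL1A1, with means of 1884 and 876 over all libraries. FN1 passed limma as higher in BPS1, a call lost in 4 of 12 fits without 1 library. It was also lost with BPS1 replicate 4 and control replicate 1 left out together. COL1A1 passed as higher in BPS2, a call lost after a correction for GC content. PRRX1, COL1A2 and LUM did not pass. The part of these shifts in the channel results was not tested, and in bulk RNA fewer cells of a type and less RNA per cell cannot be told apart.

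KELLY cells held RNA of every channel family, at very unequal levels. Of the 96 members, 79 were above 0 in all 12 libraries, 32 had a mean of at least 100 and 7 a mean of at least 1000 normalized counts. KCNA10 was listed at 0 throughout. The 12 most abundant members held 69.8% of the summed value. Members that reached 10 in 4 or more libraries entered the tests, and 67 did so, among them 47 pore-forming, 7 modifier and 12 auxiliary subunits. The 29 others had means of at most 9.54, and their highest single value was 55.9, for KCNQ1 in BPS2 replicate 4. The summed value of all members was 27142 ± 935 in BPS1, 25251 ± 108 in BPS2 and 26435 ± 726 in control (SD, n = 4 libraries each).

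Divided by transcript length, KCNH2 stood highest in control, at 997 ± 116 normalized counts per kb (SD, n = 4 here and below). KCNK3, an acid-sensitive tandem-pore channel that passes current at rest, came next at 636 ± 51.5 per kb. KCNJ12, a strong inward rectifier, had 560 ± 19.6 per kb, and KCNJ8, the pore of an ATP-sensitive channel, had 478 ± 53.9 per kb. The SDs of KCNH2 and KCNK3 left them well apart, and those of KCNJ12 and KCNJ8 nearly met. Below them came KCNIP2, a calcium-binding partner of Kv4 channels (348 ± 38.8 per kb), KCNC4, a fast Kv3 channel (339 ± 20.7 per kb), KCNG1, a modifier of Kv2 channels (337 ± 21.2 per kb), and KCNH4 of the ELK type (313 ± 14.7 per kb). Those 4 levels did not differ beyond their spread. KCNT1 had 40.9 ± 5.04 per kb in BPS1, 6.80 ± 2.57 per kb in BPS2 and 6.07 ± 1.43 per kb in control. Among the 65 tested members with a length, it ranked 28 in BPS1, 53 in BPS2 and 53 in control. KCNIP4 has no length in the annotation used and is not in this order.

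**Figure D1:**
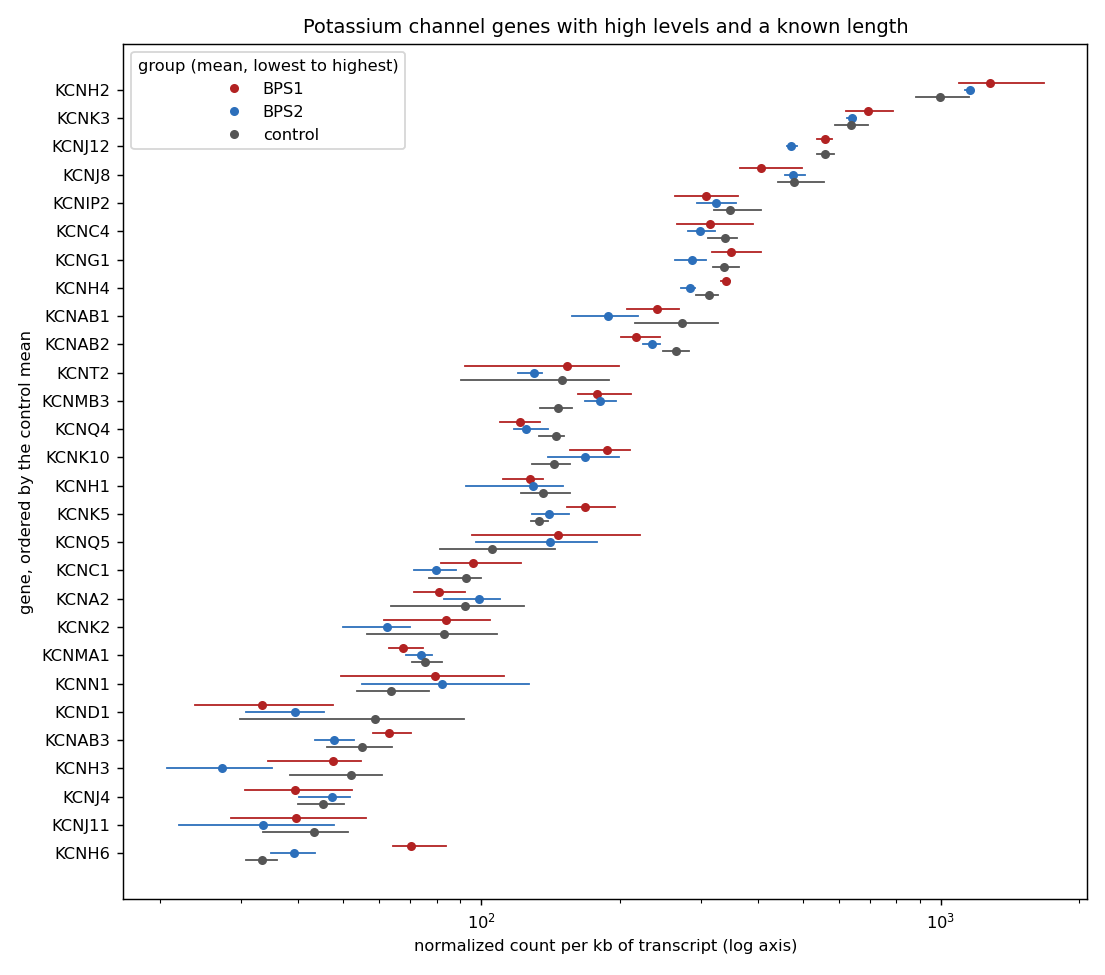
Mean normalized count per kb of transcript (log axis) of 28 tested members with high control levels, in BPS1, BPS2 and control, with a point at the mean and a line that spans the lowest to the highest of 4 libraries. KCNH2 and KCNK3 lead in each group, KCNH6 is separated in BPS1 at 70.3 per kb, and KCNT1 is not among those shown.

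Relative to control, 5 of the 67 tested members passed limma in BPS1 (7.46%), 4 higher and 1 lower, where 8.60% of all 20454 genes tested passed, 4.29% higher and 4.32% lower. KCNT1, KCNH6, KCNG3 and KCNK5 rose, and KCNAB2 fell. In BPS2 against control 1 member passed (1.49%), KCNH3, which fell, where 1.21% of all genes passed, 0.821% higher and 0.386% lower. In BPS2 against BPS1 5 members passed (7.46%), where 3.93% of all genes passed, 2.30% higher and 1.63% lower. All 5 were lower in BPS2: KCNT1, KCNH6, KCNH3, KCNH4 and KCNJ12. Members that passed without the adjustment for many genes (p under 0.05) numbered 17 of 67 in BPS1 against control, where 22.5% of all genes did, 15 in BPS2 against control, where 11.4% of all genes did, and 12 in BPS2 against BPS1, where 17.1% of all genes did. After adjustment the shares among members lay near those among all genes in both comparisons with control. The median log2 fold change over the tested members was −0.11 in BPS1 and −0.10 in BPS2 against control, where the medians over all genes were −3.60e-04 and 0.00249. Of 67, 40 lay below 0 in BPS1 and 41 in BPS2. The comparisons share libraries, so their counts are not independent.

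Groups that did not overlap at all were found for 10 members in BPS1 against control (14.9%, against 14.3% of all genes), 8 above and 2 below. In BPS2 against control they were found for 10 members (14.9%, against 9.65% of all genes), 3 above and 7 below, and in BPS2 against BPS1 for 8 (11.9%, against 11.9% of all genes), 2 above and 6 below. Without BPS1 replicate 4 and control replicate 1, the calls were 10 in BPS1 against control, 11 in BPS2 against control and 10 in BPS2 against BPS1. The share of all genes that passed then was 13.6%, 9.34% and 17.1%. That fit held no correction for GC content, and the part of the GC trend in these calls was not tested.

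**Figure D2:**
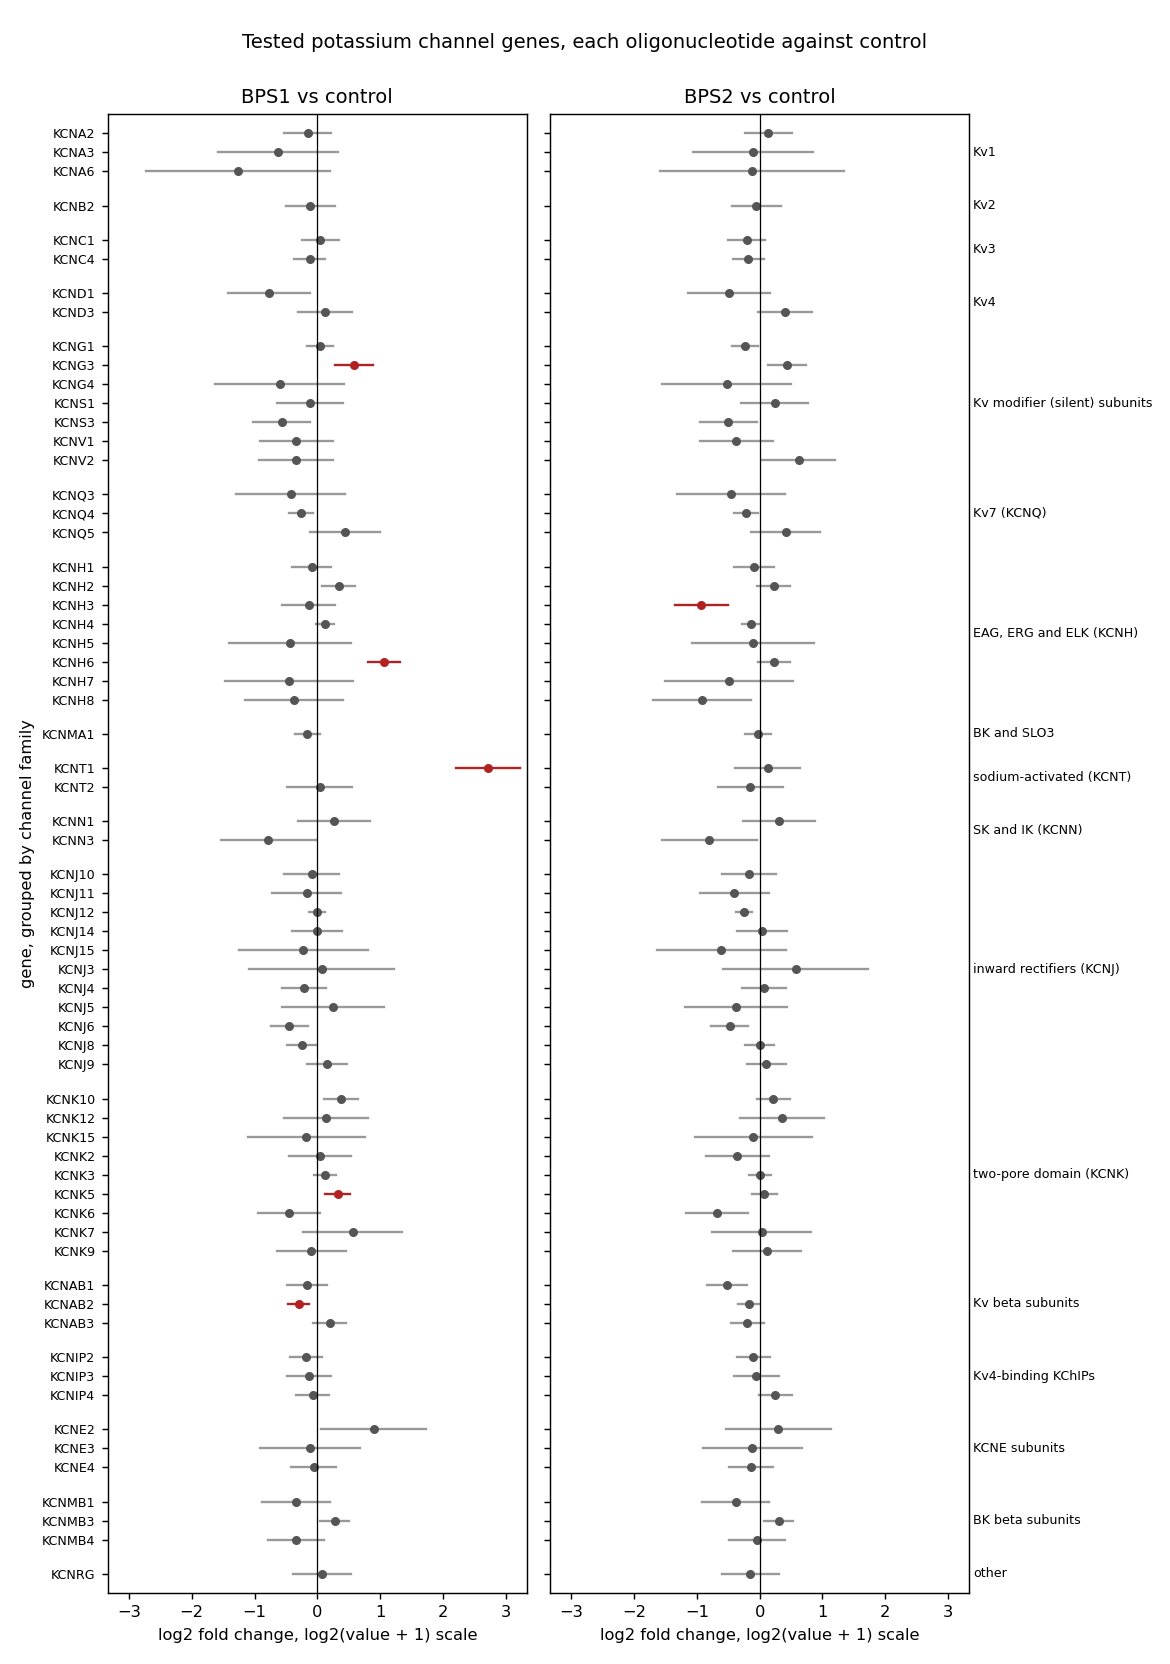
Log2 fold changes of tested members by family in BPS1 against control (left) and BPS2 against control (right), with points for the limma estimate, lines for its 95% interval and red for an adjusted p under 0.05. Most intervals include 0, and KCNT1 lies farthest from it, at 2.72 in BPS1, while KCNH3 is the member marked in BPS2, at −0.93.

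KCNT1 (ENSG00000107147) had the largest change among the tested members in BPS1. It lies on the plus strand of chromosome 9 of GRCh38, positions 135702185 to 135795508. Its normalized counts were 177, 134, 147 and 165 in BPS1, 18.9, 22.4, 21.8 and 40.3 in BPS2, and 20.6, 27.0, 28.1 and 16.6 in control. Every BPS1 library lay above every library of the other groups, while BPS2 and control overlapped. The means were 156 ± 19.2 in BPS1, 25.9 ± 9.76 in BPS2 and 23.1 ± 5.44 in control (SD, n = 4). The level was 6.60-fold higher in BPS1 than in control (log2 fold change 2.72 ± 0.24, limma adjusted p = 2.16e-05) and 6.05-fold lower in BPS2 than in BPS1 (log2 fold change −2.60 ± 0.24, limma adjusted p = 5.61e-05). BPS2 differed from control by 0.12 on the log2 scale, with a 95% interval of −0.39 to 0.64 (limma adjusted p = 0.897). The BPS1 change was 2.65 on the log2 scale without BPS1 replicate 4 and control replicate 1.

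KCNT2, the other sodium-activated channel, had 644, 802, 651 and 371 normalized counts in BPS1, 533, 483, 543 and 535 in BPS2, and 363, 600, 680 and 760 in control. The groups overlapped fully, and the lowest values of BPS1 and control came from BPS1 replicate 4 and control replicate 1. Its log2 fold change was 0.04 in BPS1, with a 95% interval of −0.48 to 0.55 (limma adjusted p = 0.952). BPS2 against control gave −0.15 (adjusted p = 0.874). Per kb, KCNT2 had 154 ± 44.7 normalized counts in BPS1, 130 ± 6.87 in BPS2 and 150 ± 42.7 in control, so it stood above KCNT1 in all 3 groups. Without those 2 libraries KCNT2 was lower in BPS2 than in control by 0.37 and than in BPS1 by 0.41 on the log2 scale, and both passed (limma adjusted p = 0.0434 and 0.0178). With all 12 libraries neither passed, before or after a correction for GC content. That correction was not made without those 2 libraries, so its effect on these calls was not tested.

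The nearest tested protein-coding gene on each side of KCNT1 did not pass in BPS1. Any other gene lying between was not examined. CAMSAP1, 13.0 kb beyond its end, had a log2 fold change of 0.12 (limma adjusted p = 0.751), and MRPS2, 198 kb before its start, had 0.11 (adjusted p = 0.635).

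KCNH6 (ENSG00000173826), an ERG-type channel on chromosome 17 from 63523334 to 63548977 on the plus strand, was the other member with at least a 2-fold rise in BPS1. Its normalized counts were 194, 198, 203 and 252 in BPS1, 113, 131, 105 and 123 in BPS2, and 102, 92.8, 98.5 and 109 in control. BPS1 lay above both other groups, whose ranges overlapped, and BPS1 replicate 4 was the highest library. The means were 212 ± 27.0 in BPS1, 118 ± 11.4 in BPS2 and 100.4 ± 6.56 in control (SD, n = 4). The level was 2.09-fold higher in BPS1 than in control (log2 fold change 1.07 ± 0.12, limma adjusted p = 1.50e-04) and 1.78-fold lower in BPS2 than in BPS1 (log2 fold change −0.83 ± 0.12, limma adjusted p = 0.00148). In BPS2 against control the log2 fold change was 0.23, with a 95% interval of −0.02 to 0.49 (limma adjusted p = 0.495). With BPS1 replicate 4 and control replicate 1 left out, the BPS1 change was 0.99 on the log2 scale. The nearest tested protein-coding gene on each side of KCNH6 did not pass in BPS1. DCAF7, 1.48 kb beyond, had a log2 fold change of 0.12 (limma adjusted p = 0.264), and AC113554.1, 1.49 kb before, had 0.52 (adjusted p = 0.578).

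The sequence before each start is shown for the 2 members that rose at least 2-fold in BPS1, since they moved together there. These are RefSeq windows of 250 bases that end at the annotated start, on GRCh38.p14, printed 5′ to 3′ on the gene's strand, with the GC box GGGCGG in capitals on either strand. The KCNT1 window is chr9:135701935-135702184 (plus strand) and the KCNH6 window chr17:63523108-63523357 (plus strand).
KCNT1: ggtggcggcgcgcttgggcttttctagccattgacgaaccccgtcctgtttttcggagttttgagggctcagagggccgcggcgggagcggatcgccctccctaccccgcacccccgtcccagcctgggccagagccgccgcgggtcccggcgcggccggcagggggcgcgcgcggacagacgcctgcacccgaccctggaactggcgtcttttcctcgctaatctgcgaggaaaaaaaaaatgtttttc
KCNH6: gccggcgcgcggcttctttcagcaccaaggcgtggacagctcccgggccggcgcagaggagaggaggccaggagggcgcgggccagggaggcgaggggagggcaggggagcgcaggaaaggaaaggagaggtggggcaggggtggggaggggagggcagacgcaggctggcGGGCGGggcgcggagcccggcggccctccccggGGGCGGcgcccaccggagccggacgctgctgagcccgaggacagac
The KCNT1 window has no capitals: it held no GC box and was 66.8% G and C. The KCNH6 window was 77.6% G and C and held 2 GC boxes, 79 and 46 bases before the start, the nearer of which overlaps a GGCGCC.

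Windows of the same kind before KCNG3 and KCNK5, the other members that rose in BPS1, held 4 and 3 GC boxes, and 2 of those before KCNK5 overlap. The GC box was present in 42.6% of 35116 windows over all genes and in 48.2% of the 110 windows of the 72 members matched by symbol. The E-box CACGTG (6.34% of all windows), the cyclic AMP element TGACGTCA (1.65%), the AP-1 site TGANTCA (6.57%) and the RBPJ core TGGGAA (20.8%) were in none of the 4 windows. GGCGCC, a BMP-SMAD element found in 16.4% of all windows, occurred in those of KCNH6 and KCNG3. Motifs were searched on both strands with overlaps allowed. A match is a description of letters and not a bound site.

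Of the 8 KCNH genes, all of which were tested, 1 rose in BPS1 (KCNH6), 1 fell in BPS2 (KCNH3), and 3 were lower in BPS2 than in BPS1 (KCNH6, KCNH3 and KCNH4). Over all genes tested 4.29% rose in BPS1, 0.386% fell in BPS2 and 1.63% were lower in BPS2 than in BPS1, and nothing particular to a family of 8 is read from these counts. KCNH3 (ENSG00000135519), an ELK-type channel of forebrain neurons on chromosome 12 from 49539157 to 49558308 on the plus strand, had 197, 212, 133 and 193 normalized counts in BPS1, 135, 107, 98.5 and 80.1 in BPS2, and 212, 235, 211 and 148 in control. BPS2 lay below control throughout, and its highest library exceeded the lowest of BPS1. The means were 184 ± 34.8 in BPS1, 105 ± 23.1 in BPS2 and 201 ± 37.1 in control (SD, n = 4). KCNH3 was 1.91-fold lower in BPS2 than in control (log2 fold change −0.93 ± 0.19, limma adjusted p = 0.0367) and 1.74-fold lower in BPS2 than in BPS1 (log2 fold change −0.80 ± 0.19, limma adjusted p = 0.0370). In BPS1 its log2 fold change was −0.13, with a 95% interval of −0.56 to 0.29 (adjusted p = 0.746). The fall against control no longer passed without control replicate 1, 2 or 3, BPS2 replicate 2, 3 or 4, or BPS1 replicate 1 (limma adjusted p 0.0529 to 0.128). The difference from BPS1 was lost without BPS1 replicate 1 or 2, BPS2 replicate 2, 3 or 4, or control replicate 3 (0.0558 to 0.117). It was also lost without a filter and with only the groups compared (limma adjusted p 0.0536 and 0.0631). With BPS1 replicate 4 and control replicate 1 left out together, both calls were kept (limma adjusted p = 0.0273 against control and 0.0334 against BPS1). KCNH3 overlaps MCRS1 on the opposite strand, which averaged 3363 in BPS1, 2937 in BPS2 and 2717 in control, and the strand setting of the counting is not given in the sources used here.

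KCNH4 (ENSG00000089558), an ELK-type channel on chromosome 17 from 42156891 to 42181278 on the minus strand, had 1331, 1267, 1290 and 1327 normalized counts in BPS1, 1115, 1081, 1038 and 1115 in BPS2, and 1204, 1118, 1213 and 1251 in control. The order BPS1, control, BPS2 held with no overlap, though the gap between the highest BPS2 and the lowest control library was small. It was 1.20-fold lower in BPS2 than in BPS1 (log2 fold change −0.26 ± 0.06, limma adjusted p = 0.0382). Against control the log2 fold change was 0.12 in BPS1 (adjusted p = 0.281) and −0.14 in BPS2 (adjusted p = 0.446). The call was lost after a correction for GC content (adjusted p = 0.133) and without control replicate 3, BPS1 replicate 1, 2 or 3, or any BPS2 library (0.0612 to 0.124). Fits without a filter, with a replicate-number term or with only the groups compared lost it too (limma adjusted p 0.103, 0.106 and 0.0848). So did the GC correction combined with the replicate-number term (limma adjusted p = 0.251). With BPS1 replicate 4 and control replicate 1 left out together it was kept (limma adjusted p = 0.0127).

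KCNH2, the most abundant member, had 3917, 3577, 3722 and 5466 normalized counts in BPS1, 3695, 3765, 3799 and 3845 in BPS2, and 3755, 3074, 2878 and 3323 in control. Its highest library was BPS1 replicate 4, the highest control library was replicate 1, and both oligonucleotide groups overlapped control. Against control, BPS1 gave a log2 fold change of 0.34 ± 0.12 (limma adjusted p = 0.106) and BPS2 a change of 0.22 ± 0.12 (adjusted p = 0.538). Without BPS1 replicate 4 and control replicate 1 it was 0.28 in BPS1 and 0.29 in BPS2, and both passed (limma adjusted p = 0.00909 and 0.00905). KCNH7, the third ERG-type gene, did not pass with all libraries, with −0.45 in BPS1 (adjusted p = 0.637) and −0.49 in BPS2 (adjusted p = 0.771). Without those 2 libraries it was lower in BPS2 than in control by 0.81 and than in BPS1 by 0.62 on the log2 scale (limma adjusted p = 0.00908 and 0.0166). Transcripts of KCNH2 are 63.7% G and C and those of KCNH7 42.9%. After a correction for GC content in all 12 libraries, KCNH2 passed in BPS1 (limma adjusted p = 0.0384). Neither gene then passed in a comparison with BPS2. The part of the GC trend in the calls without those 2 libraries was not tested.

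**Figure D3:**
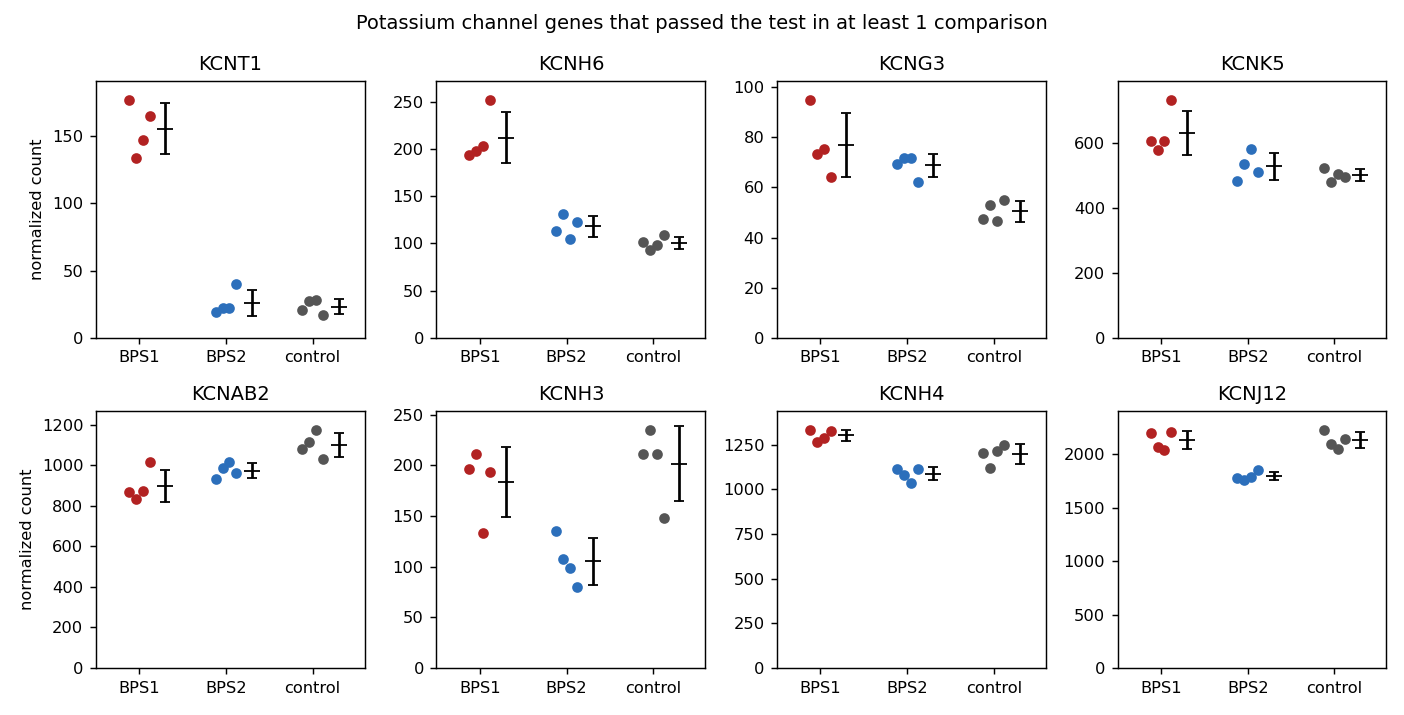
Normalized count in each of the 4 libraries (points) of BPS1, BPS2 and control for the 8 members that passed in at least 1 comparison, with a bar at the mean and lines of 1 SD. The BPS1 libraries of KCNT1, between 134 and 177, lie clear of BPS2 and control, while the groups of KCNK5 and KCNAB2 lie close together.

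Among the 16 inward rectifiers, 11 were tested and 1 passed, KCNJ12, in BPS2 against BPS1. KCNJ12 (ENSG00000184185), on chromosome 17 from 21376197 to 21419872 on the plus strand, had 2206, 2074, 2046 and 2212 normalized counts in BPS1, 1782, 1766, 1790 and 1850 in BPS2, and 2227, 2101, 2052 and 2150 in control. All BPS2 libraries lay below all others, and BPS1 and control coincided. It was 1.19-fold lower in BPS2 than in BPS1 (log2 fold change −0.25 ± 0.06, limma adjusted p = 0.0345), and the same −0.25 against control had an adjusted p of 0.0731. The fall against control passed without BPS1 replicate 4 and control replicate 1 (limma adjusted p = 0.0152) and after a correction for GC content (0.0404). Of the fits without a single library, only that without BPS1 replicate 4 gave this call (0.0257). The call against BPS1 was lost after a correction for GC content (0.0674) and without control replicate 2, 3 or 4, BPS1 replicate 1, 2 or 3, or any BPS2 library (0.0501 to 0.106). Fits without a filter, with a replicate-number term or with only the groups compared lost it too (limma adjusted p 0.104, 0.0987 and 0.0884). So did the GC correction combined with the replicate-number term (limma adjusted p = 0.158). With BPS1 replicate 4 and control replicate 1 left out together it was kept (limma adjusted p = 0.00731). KCNJ12 has a near-identical copy, KCNJ18, listed at 0.516 in BPS1, 2.29 in BPS2 and 1.26 in control on average, so reads could have been split between them and the value is uncertain.

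KCNJ6, a G protein-gated rectifier, had 242, 228, 235 and 176 normalized counts in BPS1, 253, 224, 187 and 201 in BPS2, and 260, 345, 315 and 281 in control. Both oligonucleotide groups lay below control without overlap, and neither passed: BPS1 gave −0.45 ± 0.14 (limma adjusted p = 0.0612) and BPS2 gave −0.47 ± 0.14 (adjusted p = 0.151). Without BPS1 replicate 4 and control replicate 1 both did, at −0.41 and −0.54 (limma adjusted p = 0.0479 and 0.0160). After a correction for GC content in all 12 libraries, only BPS1 did (limma adjusted p = 0.0306). KCNJ8 averaged 969 ± 151 in BPS1, 1138 ± 49.0 in BPS2 and 1142 ± 129 in control, and its log2 fold change of −0.24 in BPS1 did not pass (limma adjusted p = 0.205). Without the same 2 libraries it was −0.27 (limma adjusted p = 0.0149), and KCNJ8 was then 0.35 higher in BPS2 than in BPS1 (adjusted p = 0.00250). With all libraries neither KCNJ8 difference passed, before or after the GC correction. That correction was not made without those 2 libraries, so its effect on the KCNJ6 and KCNJ8 calls there was not tested.

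Of the 15 tandem-pore genes, 9 were tested and 1 rose in BPS1. KCNK5 (ENSG00000164626), an alkaline-activated background channel on chromosome 6 from 39188973 to 39229450 on the minus strand, had 608, 578, 606 and 732 normalized counts in BPS1, 484, 536, 582 and 511 in BPS2, and 524, 481, 504 and 496 in control. BPS1 lay above control, while BPS2 overlapped both. It was 1.25-fold higher in BPS1 (log2 fold change 0.33 ± 0.09, limma adjusted p = 0.0437), and BPS2 against control gave 0.07 (adjusted p = 0.828). This call was lost when any library other than BPS2 replicate 3 was left out (limma adjusted p 0.0512 to 0.116). Fits without a filter, with a replicate-number term or with only the groups compared lost it too (limma adjusted p 0.0867, 0.102 and 0.105). So did a correction for GC content combined with the replicate-number term (limma adjusted p = 0.0561). With BPS1 replicate 4 and control replicate 1 left out together it was kept (adjusted p = 0.0403). KCNK3 had 2853, 2524, 2703 and 3195 in BPS1, 2623, 2580, 2532 and 2648 in BPS2, and 2819, 2428, 2386 and 2694 in control, with full overlap and log2 fold changes of 0.12 in BPS1 and 0.01 in BPS2 (limma adjusted p = 0.407 and 0.976). KCNK10, a stretch-sensitive channel, had 575, 510, 541 and 424 in BPS1, 544, 454, 457 and 380 in BPS2, and 351, 392, 404 and 424 in control. Its lowest BPS1 library and the highest of control were nearly equal, and its log2 fold change of 0.38 did not pass (limma adjusted p = 0.0806). It was 0.41 and passed without BPS1 replicate 4 and control replicate 1 (adjusted p = 0.0350).

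No member of the classical voltage-gated families passed limma in any of the 3 comparisons, with 3 of 8 Kv1, 2 of 2 Kv2, 3 of 4 Kv3, 2 of 3 Kv4 and 4 of 5 Kv7 genes tested. Without adjustment, p lay under 0.05 for 1 Kv3, 1 Kv4 and 2 Kv7 genes in BPS1 against control, for 2 Kv7 genes in BPS2 against control, and for none in BPS2 against BPS1.

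KCND1, an A-type Kv4 channel, had 92.2, 146, 185 and 94.5 normalized counts in BPS1, 154, 119, 161 and 176 in BPS2, and 116, 221, 354 and 219 in control. The groups overlapped, BPS1 replicate 4 and control replicate 1 were at the low end of their groups, and −0.77 in BPS1 did not pass (limma adjusted p = 0.148). Without those libraries it was −0.92 and passed (adjusted p = 0.0353). KCNA2, a low-threshold Kv1 channel of axons, averaged 228 ± 26.2 in BPS1, 280 ± 32.4 in BPS2 and 260.1 ± 69.8 in control. KCNQ5, a Kv7 channel of neurons, averaged 944 ± 346 in BPS1, 907 ± 233 in BPS2 and 680 ± 177 in control. Both overlapped between groups. KCNC4 averaged 948 ± 167 in BPS1, 904 ± 58.6 in BPS2 and 1024 ± 62.4 in control and overlapped too.

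The calcium-activated channels did not pass in limma either. KCNMA1, the large-conductance BK pore, had 257, 297, 268 and 251 normalized counts in BPS1, 311, 307, 284 and 273 in BPS2, and 326, 280, 281 and 310 in control, with log2 fold changes of −0.16 in BPS1 and −0.03 in BPS2 (limma adjusted p = 0.353 and 0.951). KCNN1, a small-conductance channel, averaged 211 ± 71.6 in BPS1, 218 ± 82.4 in BPS2 and 169 ± 25.8 in control. KCNN3, the other tested gene of that type, averaged 40.3 ± 3.49 in BPS1, 43.4 ± 20.4 in BPS2 and 75.0 ± 31.4 in control. Both KCNN genes overlapped control in each oligonucleotide group. Of these 3 tested genes, 1 of the KCNN type, not named here, had an unadjusted p under 0.05 in each comparison with control.

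Modifier subunits join Kv2 pores and change their gating, and 1 of the 7 tested rose in BPS1. KCNG3 (ENSG00000171126), on chromosome 2 from 42442017 to 42494097 on the minus strand, was that member. Its normalized counts were 94.9, 73.2, 75.3 and 64.2 in BPS1, 69.4, 71.8, 71.8 and 62.3 in BPS2, and 47.4, 52.8, 46.6 and 55.2 in control. Both oligonucleotide groups lay wholly above control. The means were 76.9 ± 12.9 in BPS1, 68.8 ± 4.50 in BPS2 and 50.5 ± 4.17 in control (SD, n = 4). It was 1.50-fold higher in BPS1 than in control (log2 fold change 0.59 ± 0.14, limma adjusted p = 0.0207), and BPS2 gave 0.44, with a 95% interval of 0.14 to 0.74 before adjustment and an adjusted p of 0.199. The BPS1 call was lost without control replicate 3, BPS1 replicate 1 or BPS1 replicate 3 (limma adjusted p 0.0506 to 0.0609). Fits without a filter, with a replicate-number term or with only the groups compared lost it too (limma adjusted p 0.0545, 0.0593 and 0.0719). With BPS1 replicate 4 and control replicate 1 left out together it was kept (adjusted p = 0.0155). BPS2 and BPS1 differed by −0.15 (adjusted p = 0.673). KCNG1, the most abundant modifier, averaged 773 ± 87.2 in BPS1, 637 ± 50.5 in BPS2 and 746 ± 46.8 in control, and BPS2 lay below both other groups without passing (log2 fold change −0.23 against control, limma adjusted p = 0.365, and −0.28 against BPS1, adjusted p = 0.143). KCNV2, a modifier of Kv2 channels in photoreceptors, was named after its values were seen and passed the filter on low values through the BPS2 libraries, so no test is given for it. It had 8.52, 9.40, 6.81 and 6.56 in BPS1, 10.9, 17.7, 17.6 and 19.4 in BPS2, and 7.12, 10.8, 9.78 and 13.6 in control. All of these values lie near the filter, the BPS2 libraries lay above those of BPS1, and BPS2 and control overlapped.

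Among the auxiliary subunits, 12 of 16 were tested and 1 fell in BPS1. KCNAB2 (ENSG00000069424), a cytoplasmic Kv beta subunit that binds Kv1 channels, lies on chromosome 1 from 5991466 to 6101193 on the plus strand. It had 869, 833, 871 and 1016 normalized counts in BPS1, 930, 985, 1016 and 960 in BPS2, and 1081, 1115, 1172 and 1031 in control. Both oligonucleotide groups lay below control, with BPS1 lowest. The means were 897 ± 80.8 in BPS1, 973 ± 36.7 in BPS2 and 1100 ± 59.4 in control (SD, n = 4). It was 1.23-fold lower in BPS1 than in control (log2 fold change −0.30 ± 0.08, limma adjusted p = 0.0353), and −0.18 in BPS2 did not pass (adjusted p = 0.418). That call was lost without control replicate 1, 2 or 3, BPS1 replicate 1, 2 or 3, or BPS2 replicate 2 or 4 (limma adjusted p 0.0534 to 0.104). Fits without a filter, with a replicate-number term or with only the groups compared lost it too (limma adjusted p 0.0750, 0.0925 and 0.115). With BPS1 replicate 4 and control replicate 1 left out together it was kept (adjusted p = 0.00429). KCNAB2 overlaps NPHP4 on the opposite strand, which averaged 1190 in BPS1, 1192 in BPS2 and 1165 in control.

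KCNAB1, a Kv beta subunit that speeds inactivation, had 867, 665, 780 and 779 normalized counts in BPS1, 703, 566, 505 and 647 in BPS2, and 694, 752, 1006 and 1052 in control. BPS2 overlapped control through BPS2 replicate 1 and control replicate 1, and its −0.52 ± 0.15 did not pass (limma adjusted p = 0.148). It was −0.62 and passed once BPS1 replicate 4 and control replicate 1 were left out (adjusted p = 0.0218). With all 12 libraries it did not pass after a correction for GC content either. That correction was not made without those 2 libraries, so its effect on this call was not tested. KCNMB3, a BK beta subunit, had 244, 263, 242 and 314 in BPS1, 279, 292, 250 and 255 in BPS2, and 232, 234, 209 and 199 in control. Both groups lay above control, and neither 0.28 nor 0.30 passed (limma adjusted p = 0.144 in BPS1 and 0.281 in BPS2). Without BPS1 replicate 4 and control replicate 1, KCNMB3 passed in BPS2 against control, at 0.33 (limma adjusted p = 0.0486). KCNIP4, a Kv4-binding protein, averaged 511 ± 66.8 in BPS1, 639 ± 80.4 in BPS2 and 538 ± 56.7 in control. KCNE4, a single-pass subunit of Kv7 and Kv1 channels, averaged 39.9 ± 4.39 in BPS1, 38.2 ± 8.20 in BPS2 and 41.5 ± 1.46 in control, and KCNRG averaged 45.3 ± 10.7, 38.5 ± 8.10 and 42.6 ± 7.40 in these groups. The last 3 overlapped throughout.

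For the 8 members that passed in any comparison, a two-sided exact permutation test on the 70 ways to arrange 4 against 4 was run in all 3 comparisons, 24 tests in all. The members were chosen by their limma results in the same libraries, so the permutation p-values are a description and no separate support. The smallest possible p, 0.0286, was reached in 15 of the 24 tests, 10 of which passed limma and 5 of which did not. KCNH3 in BPS2 against BPS1 passed limma with an exact permutation p of 0.0571. KCNT1 and KCNH6 kept their calls in both comparisons under all 25 alternatives run, and the log2 fold change in BPS1 stayed between 2.53 and 2.82 for KCNT1 and between 0.98 and 1.10 for KCNH6.

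Channel partners outside the KCN names were counted over a list of 22 genes, of which 20 were tested. In BPS1 against control 4 rose and 3 fell, which is 35% where 8.60% of all genes passed. With BPS2, 2 rose and 1 fell (15%, where 1.21% of all genes passed), and in BPS2 against BPS1 none passed limma, with 5 at an unadjusted p under 0.05. The list was chosen with results known, and no test was made of these shares. LRRC55, which encodes a BK gamma subunit that eases opening, had 413, 411, 469 and 436 normalized counts in BPS1, 429, 361, 410 and 424 in BPS2, and 244, 240.0, 254 and 282 in control. Both oligonucleotide groups lay above control. On the log2 scale the rise was 0.76 ± 0.09 with BPS1 (limma adjusted p = 2.76e-04) and 0.67 ± 0.09 with BPS2 (adjusted p = 0.00307), and both calls were kept under all 25 alternatives.

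SGK1, a kinase that raises the surface density of several channels, had 101, 85.7, 119 and 83.5 normalized counts in BPS1, 80.4, 88.5, 78.9 and 105 in BPS2, and 44.4, 41.7, 69.6 and 42.4 in control. Both groups lay above control, and the rises were 0.98 with BPS1 (limma adjusted p = 0.00567) and 0.84 with BPS2 (adjusted p = 0.0465). ABCC8, the sulfonylurea receptor that pairs with inward rectifiers in ATP-sensitive channels, averaged 111 ± 29.6 in BPS1, 94.8 ± 14.1 in BPS2 and 207 ± 73.1 in control. It fell by 0.86 in BPS1 and 1.07 in BPS2 on the log2 scale (limma adjusted p = 0.0353 and 0.0443), with 1 BPS1 library, at 153, above the lowest of control, at 149. CNTNAP2, which clusters Kv1 channels beside nodes of Ranvier, fell in BPS1 by 0.27 (limma adjusted p = 0.0310), as did its partner CNTN2, by 0.51 (adjusted p = 0.0490). CNTN2 was named after its values were seen. SGK1 kept its BPS1 call when any single library was left out, and its BPS2 call was lost in 10 of 12 such fits (adjusted p up to 0.160, without BPS2 replicate 4). ABCC8 lost its BPS1 call in 4 of 12 (up to 0.101, without BPS1 replicate 3) and its BPS2 call in 8 of 12 (up to 0.136, without BPS2 replicate 2). CNTNAP2 and CNTN2 lost theirs in 5 and 11 of 12, with adjusted p up to 0.0927 (without control replicate 3) and 0.123 (without control replicate 4).

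Potassium pumps, cotransporters and other cation channels formed a second list of 18 genes, of which 17 were tested. In BPS1 3 fell (17.6%, where 8.60% of all genes passed), in BPS2 none passed limma (4 at an unadjusted p under 0.05), and in BPS2 against BPS1 2 were higher (11.8%, where 3.93% of all genes passed). HCN3 and HCN4 encode cation channels that open on hyperpolarisation. HCN3 had 939, 983, 1036 and 1120 normalized counts in BPS1, 1389, 1365, 1262 and 1253 in BPS2, and 1390, 1170, 1378 and 1396 in control. BPS1 lay below both other groups, with a fall of 0.39 against control (limma adjusted p = 0.0126) and a difference of 0.37 between BPS2 and BPS1 (adjusted p = 0.0257). TMEM38A, a potassium channel of the endoplasmic reticulum, had 46.8, 35.5, 26.2 and 44.2 in BPS1, 66.8, 71.2, 75.2 and 78.2 in BPS2, and 80.0, 59.5, 59.0 and 84.6 in control. BPS1 again lay below both other groups, by 0.89 against control (limma adjusted p = 0.0125), and BPS2 lay 0.95 above BPS1 (adjusted p = 0.0148). HCN4 averaged 63.4 ± 7.66 in BPS1, 75.3 ± 6.13 in BPS2 and 93.5 ± 11.4 in control and fell in BPS1 by 0.55 (limma adjusted p = 0.0239). No subunit of the sodium-potassium pump passed in any comparison. HCN3 and TMEM38A kept their calls against control when any single library was left out. Against BPS1, the HCN3 call was lost in 7 of 12 such fits (adjusted p up to 0.0840, without BPS2 replicate 2) and the TMEM38A call without BPS2 replicate 4 (0.0508). HCN4 lost its call in 5 of 12 (up to 0.0718, without BPS1 replicate 2). The HCN4 call was also lost with BPS1 replicate 4 and control replicate 1 left out together. Fits without a filter, with a replicate-number term or with only the groups compared lost it too (limma adjusted p up to 0.0741).

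**Figure D4:**
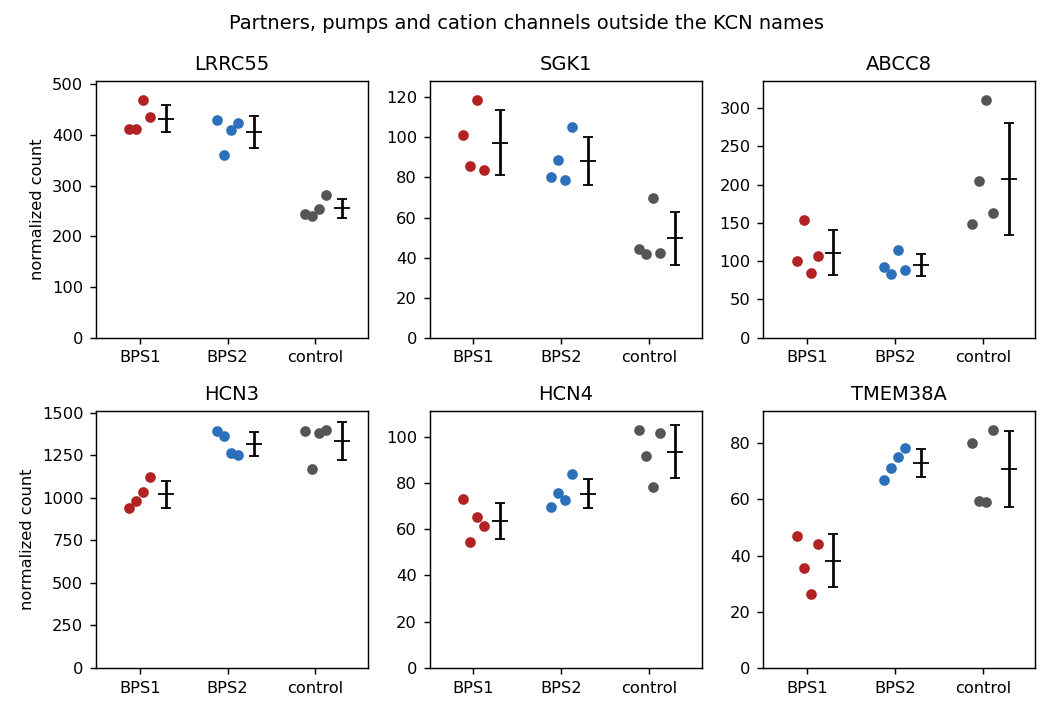
Normalized count in each of the 4 libraries (points) of BPS1, BPS2 and control for 6 genes of both lists that passed in at least 1 comparison, with a bar at the mean and lines of 1 SD. LRRC55 and SGK1 lie above control in both oligonucleotide groups, and HCN3 and TMEM38A are lower in BPS1, where TMEM38A spans 26.2 to 46.8.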

How the data were processed

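RNA-seq of 12 libraries was analysed from the deposited table of normalized counts, a signal value per gene and library made by the authors. Per the submitters' processing notes, FastQC 0.11.7, Salmon 0.8.2, DESeq2 and GRCh38 were used, and neither the DESeq2 version nor the annotation release is given in the sources used here. Per the labels' protocols, ribosomal RNA was depleted and strand-specific libraries were read as single 100-base reads, with a stated mean of 25 M reads. The BPS2 columns were matched by sample title, since their description field reads KPAS, a name the labels do not explain, and a column spelled BSP1 is BPS1 replicate 3. Most genes were not in whole multiples of 1 read, so no count test was run.

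Genes that reached 10 in 4 or more libraries (20454) were fitted as log2(value + 1) with limma 3.58.1 (R 4.3.3, mean-variance trend, all 12 libraries, group as the only term), with Benjamini-Hochberg adjustment over all of them and a threshold of 0.05. On that scale fold changes of genes with low values come out too small. Levels per kb use the median length of basic transcripts in GENCODE release 29 (GRCh38), where 93 of the 96 members were found and which may not be the authors' release. Promoters are from RefSeq. Alternatives changed the pseudocount (0.5, 5), the filter (none, 50), the scaling, the variance estimate, the GC trend, the replicate block and the libraries included.

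Named were KCNT1, members that passed, the 12 most abundant, each family's most abundant member, up to 6 passing genes a list and the identity markers, and some genes this rule takes are not reported here. The members and lists were chosen with earlier results of these data known. No pairing by replicate number was seen, as same-number correlations of deviations were −0.272 to 0.103, though these cannot exclude shared handling.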

Additional observations from a re-analysis of the deposited data

Results flagged for a closer look

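In 28 members, the 12 most abundant, those that passed, family leaders and 2 untested members with a value of at least 20 in some library, each group of 4 libraries was searched for 1 library far from the other 3 by the 95% limit of Dixon's test. Chance marks about 5% of groups, and 4 of the 78 group values of the 26 tested members were marked. The other 4 marks are in the 2 untested members, which were included for a high single value, so that rate does not apply to them.

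KCNH6 had 252 in BPS1 replicate 4, with the other BPS1 libraries at 194 to 203. KCNJ8 had 1192 in the same library, with the others at 872 to 926. KCNT1 had 40.3 in BPS2 replicate 4, with the others at 18.9 to 22.4. KCNQ1, a Kv7 channel of heart and epithelia that was not tested, had 55.9 in that library too, with the others at 2.86 to 5.24. KCNT2 was marked for a low value, 483 in BPS2 replicate 2, with the others at 533 to 543.

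KCNU1, a sperm channel that was not tested, was marked in each group. It had 2.30 in BPS1 replicate 1 (others 0 to 0.268), 22.7 in BPS2 replicate 2 (others 0 to 0.296) and 24.2 in control replicate 4 (others 0).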

How the results depend on the processing

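The 11 calls of a member in a comparison were each refitted under 25 alternatives, 275 in all: 200 kept the call, 75 lost it and 0 changed direction. With all libraries, members that passed numbered 5 in BPS1 against control, 1 in BPS2 against control and 5 in BPS2 against BPS1. Leaving out each library in turn gave 2 to 7, 0 to 2 and 2 to 6 in that order, while the share of all tested genes that passed ran from 5.39% to 11.6%, 0.557% to 2.62% and 2.33% to 8.62%. Counts that moved by over 1.5 times were as follows, by comparison in the same order, with the share of all genes that passed in brackets. Without a filter they were 2 in BPS1 against control (2.86%) and 2 in BPS2 against BPS1 (1.34%). In BPS2 against control a minimum of 50 gave 2 (1.91%), as did quantile scaling (1.32%). Library weights gave 12 (16.5%), 6 (6.34%) and 10 (17.7%). With only the groups compared, 2 passed in BPS1 against control (4.43%) and 2 in BPS2 against BPS1 (2.65%). The GC correction gave 8 (10.1%), 2 (1.63%) and 3 (4.93%). Without control replicate 1 and BPS1 replicate 4 there were 10 (13.6%), 11 (9.34%) and 10 (17.1%). The replicate block gave 2 in BPS1 against control (5.22%) and 3 in BPS2 against BPS1 (2.19%), and 3 in BPS2 against BPS1 with the GC correction added (2.57%). No pairing by number was seen, since 0 of the 12 correlated best with its own number, but this cannot exclude that same-numbered libraries were handled together.

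Of the channel partners, 7, 3 and 0 passed, and 2 to 7, 1 to 4 and 0 to 1 when single libraries were left out. In BPS1 against control 2 passed without a filter, with the replicate block or with only the groups compared, and 4 with the block and GC correction. In BPS2 against control 1 passed without a filter and with the block, alone or with the GC correction. In BPS2 against BPS1 1 passed with quantile scaling, the GC correction or those 2 libraries left out, and 2 with library weights. Of the pumps, cotransporters and cation channels, 3, 0 and 2 passed, and 2 to 4, 0 to 0 and 0 to 3 when single libraries were left out. In BPS1 against control 5 passed with library weights and 0 with only the groups compared, in BPS2 against control 1 with library weights or without those 2 libraries, and in BPS2 against BPS1 1 with the replicate block, alone or with the GC correction. The cause of these changes was not tested. The 29 members under the filter give no test.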
